A study of Mus musculus with 9 samples.

Results

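The genes of the proteasome were followed in the hearts of 9 male NSG mice. All genes whose symbol begins with Psm, then a letter from a to g and a digit, were taken from the table of counts, which gave 49 of the 13890 genes listed. All 49 passed the filter on low counts and were among the 13364 genes tested. The list holds 14 core genes, the testis form Psma8, 3 immunoproteasome genes, 17 genes of the regulatory particle, 7 assembly factors, 5 genes of other activators, the inhibitor Psmf1 and Psmc3ip. Psmc3ip, a recombination factor, carries a matching symbol but is no proteasome gene. It was counted among the 49 and did not differ between groups by the test used, with log2 fold changes of 0.08 for T vs. S, of −0.20 for A + T vs. T, and of −0.12 for A + T vs. S.

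The study asked whether blocking ACVR2B signalling protects the heart and other organs of mice with liver metastases of a colorectal cancer. The 8-week-old mice, of the immunodeficient NSG strain, received sterile saline into the spleen (S, sham surgery, 3 mice) or cells of HCT116, a human colorectal cancer line, by the same route (T, 3 mice). Hosts of the third group also received a weekly injection of ACVR2B/Fc (A + T, 3 mice), a soluble receptor that binds ligands of ACVR2B. Hearts were taken about 3 weeks after surgery, and messenger RNA was sequenced in paired ends of 75 bases. Mice of the groups S and T were injected weekly with saline in its place. Beyond the NSG background, shared by all 9 mice, no mutation or transgene is named. No library is labelled as tumour-free with ACVR2B/Fc.

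The proteasome is the protease that breaks down proteins marked with ubiquitin. Its barrel-shaped core particle is built from outer alpha rings and inner beta rings and cuts proteins with Psmb5, Psmb6 and Psmb7, while the regulatory particle that caps it receives ubiquitinated proteins, unfolds them with a ring of ATPases (Psmc1 to Psmc6) and removes the ubiquitin at its lid. Interferons raise the immunoproteasome subunits Psmb8, Psmb9 and Psmb10, which take the places of the constitutive catalytic subunits, and in wasting muscle, the heart included, the ubiquitin-proteasome system is a main route of protein loss.

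Libraries held between 12392222 and 19732471 counts, and the 49 genes took between 0.342% and 0.431% of them. Each library was a numbered animal, so P-values measure the spread between these animals, 3 in a group. The label of group T is in doubt. Over the 429 genes that the study lists as changed, the fold changes of these libraries against S were compared with columns of that list. The Pearson correlation was 0.9999 with the column headed ACVR2B vs sham, read here as ACVR2B/Fc without a tumour, and 0.28 with the tumour column. Whether the sample labels or the column headings are wrong cannot be told from this. The label A + T was not checked in this way. The libraries of animals 11, 12 and 15 are therefore called the libraries or hearts labelled T throughout. Any direction drawn from them is that of the libraries, not of the tumour. The ribosomal RNA gene Rn45s took 4.57% to 19.6% of a library, with high and low libraries in every group. The secretory airway gene Scgb1a1 had 1345 counts in animal 12 (labelled T) and 17508 in animal 22 (A + T) against 0 to 27 in the other libraries, so results are also given without these animals. All 8 cardiomyocyte markers were present and summed to between 51047 and 81305 counts scaled to library size (CPM, with TMM scaling factors), and of 8 lymphocyte markers, cells that NSG mice lack, 1 was listed, at a CPM of 1.0 or less. The 5 atrial markers summed to 2999 to 3084 CPM in S, 861 to 4551 in the hearts labelled T and 793 to 2051 in A + T. What this unevenness adds to the comparisons was not tested.

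Compared per length of transcript, as in the log2 values that the authors deposited, levels fell over a wide range within the complex. On this scale the activator subunit Psme1 was highest (124 on average over the 9 hearts, converted from log2), followed by the ATPase Psmc3 (124), the catalytic subunit Psmb7 (118), the outer-ring subunit Psma6 (110) and the inner-ring subunit Psmb1 (108). The values of single hearts overlapped among these genes, so their order is not separated. Among the catalytic subunits, Psmb5 stood at 23.1 ± 0.62 in S, 21.7 ± 2.31 in the hearts labelled T and 24.9 ± 1.04 in A + T (SD, n = 3), below Psmb6 in every heart. Psmb6 stood at 86.5 ± 8.83, 90.6 ± 7.94 and 89.2 ± 7.94 in the same order. The immunoproteasome genes Psmb8 (7.57 over all hearts) and Psmb9 (4.52) lay below Psmb5 in every heart. Psmb10, at 21.9, was near Psmb5 (23.2 over all hearts). It was above Psmb5 in every heart labelled T and in animal 22, and below it in the other hearts. The lowest levels were those of Psma8, which had 4 to 21 counts in a library, and of Psme2b, a near copy of Psme2 whose reads may be shared with it and whose value is uncertain.

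**Figure D1:**
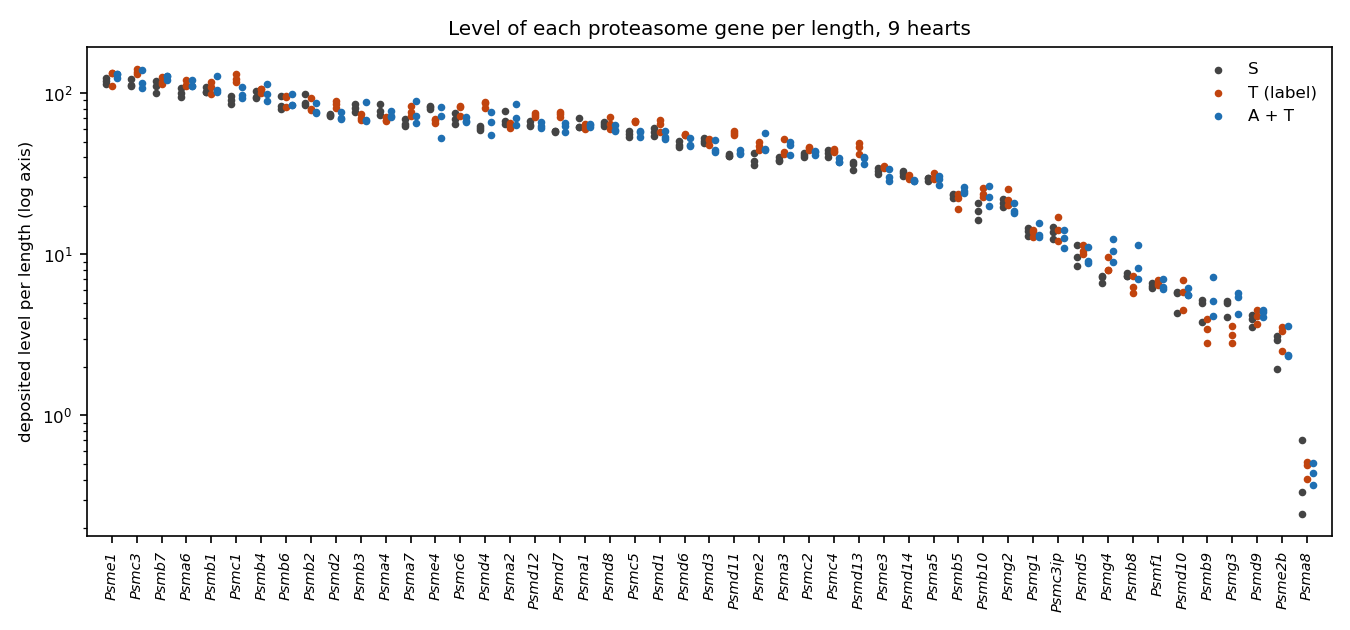
Level of each of the 49 genes per length (deposited log2 values converted to a linear scale, log axis), in order of the mean; each point is 1 heart (3 labelled S, 3 labelled T, 3 A + T). Levels run from above 100 for Psme1, Psmc3, Psmb7, Psma6 and Psmb1 to under 1 for Psma8, and the points of the groups overlap for most genes.

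Several genes of the regulatory particle were higher in the hearts labelled T than in S. Of the 49 genes, 6 rose and none fell at a Benjamini-Hochberg adjusted P under 0.05 (edgeR's quasi-likelihood test over all genes tested), and all 6 belong to the 17 genes of the regulatory particle. Over all genes tested, 21.2% passed this test and 10.3% rose, so the share of all 49 genes (12.2% rose) was near the background, while that of the regulatory particle was 35.3%. Its median log2 fold change was 0.20, against −0.00 over all genes tested, and 15 of its 17 genes had a positive value. For 11 of the 17 genes the hearts labelled T lay above every S heart, as for 21.1% of all genes tested. Under the study's thresholds (a fold change of 1.5 or more with an unadjusted P under 0.05), which 14.2% of all genes passed, only 1 of the 49 genes passed. It was the assembly factor Psmg3, which was lower in the hearts labelled T.

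In the build GRCm38 annotation (GENCODE M21), the 6 genes lie at chr12:100110154-100123405 (Psmc1, plus strand), chr11:106256154-106263120 (Psmc5, plus), chr3:95032694-95042614 (Psmd4, minus), chr8:107580381-107588464 (Psmd7, minus), chr11:80428615-80473248 (Psmd11, plus) and chr7:140881968-140898643 (Psmd13, plus). They are thus spread over the genome. Psmd11, a lid subunit, had 73.2, 70.7 and 71.2 CPM in S, 102, 95.9 and 98.3 in the hearts labelled T and 74.0, 78.0 and 73.9 in A + T. The hearts labelled T stood apart from both other groups, and its log2 fold change against S was 0.46 (SE 0.07, adjusted P = 0.00123). Psmd4, a receptor for ubiquitin chains, had 82.6, 80.1 and 84.5 CPM in S, 118, 118 and 109 in the hearts labelled T and 74.3, 88.7 and 104 in A + T. A + T was scattered, overlapping with S, and the hearts labelled T were above S by 0.48 on the log2 scale (SE 0.11, adjusted P = 0.0111).

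Psmc1, an ATPase of the ring, had 136, 143 and 128 CPM in S, 196, 176 and 182 in the hearts labelled T and 139, 145 and 163 in A + T. The groups S and T did not overlap, with a log2 fold change of 0.45 (SE 0.09, adjusted P = 0.00504). Psmc5, another ATPase, had 71.6, 74.2 and 68.1 CPM in S, 85.6, 85.7 and 84.5 in the hearts labelled T and 68.2, 73.9 and 75.3 in A + T. Its log2 fold change was 0.26 (SE 0.07, adjusted P = 0.0264), and it is a call that was lost in 4 of the 9 fits that left out 1 animal.

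Psmd7, the lid partner of the deubiquitinase Psmd14, had 93.1, 93.5 and 92.3 CPM in S, 119, 122 and 114 in the hearts labelled T and 91.5, 100.5 and 105 in A + T. The hearts labelled T were highest in each case, and against S they gave 0.35 on the log2 scale (SE 0.07, adjusted P = 0.00762). Psmd13, a lid subunit, had 57.3, 58.4 and 52.6 CPM in S, 76.2, 72.8 and 65.7 in the hearts labelled T and 62.0, 56.8 and 63.1 in A + T. All hearts labelled T were above all others, at 0.35 on the log2 scale against S (SE 0.08, adjusted P = 0.0136), and this call was lost in 2 of the 9 fits that left out 1 animal. The deubiquitinase Psmd14 itself had 47.2, 49.4 and 50.6 CPM in S and 44.9, 47.7 and 46.4 in the hearts labelled T, with overlapping groups (log2 fold change −0.08).

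**Figure D2:**
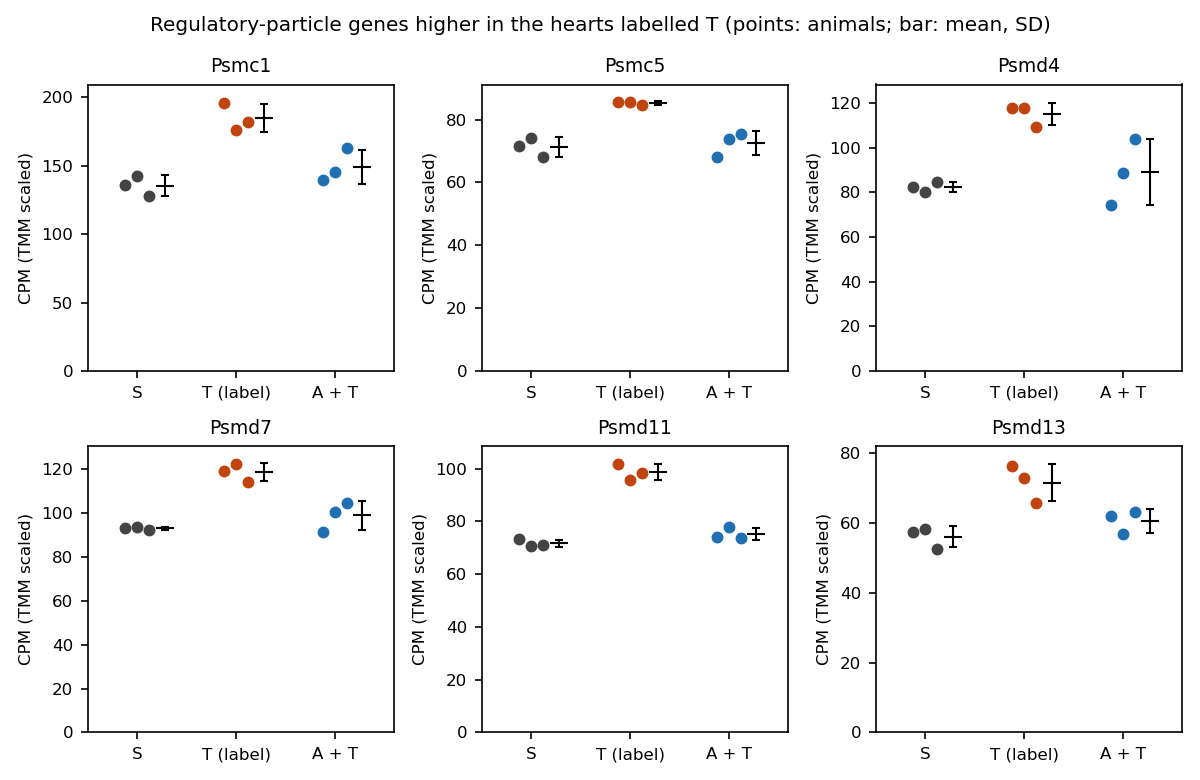
CPM after TMM scaling of Psmc1, Psmc5, Psmd4, Psmd7, Psmd11 and Psmd13 (y axes start at 0); points are hearts of S, of the group labelled T and of A + T, and bars give mean and SD (n = 3). In each panel the 3 hearts labelled T lie above all S hearts, as in Psmd11 (95.9 to 102 against 70.7 to 73.2).

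Of the other regulatory-particle genes, Psmc4 (0.05) was the lowest of the ATPases. Over the base, values ran from Psmd1 (0.14) to Psmd4, and over the lid from Psmd14 (−0.08) to Psmd11 (0.46). When each library was scaled by its total alone, only Psmd11 passed (adjusted P = 0.0419), although 14 of the 17 values stayed positive. The fibroblast markers moved with this comparison (5 of 5 lower in the hearts labelled T, sums of 835 to 972 CPM against 1503 to 1692 in S), as did those of endothelium (4 of 5 lower, 419 to 521 against 714 to 836). Of the 8 cardiomyocyte markers, 2 were called higher and 1 lower in the hearts labelled T. The part of all these markers in the result was not tested. In RNA of a whole heart, fewer cells of a type and less RNA per cell cannot be told apart.

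None of the 14 genes of the core particle passed the same test, with 8 positive and 6 negative values and a median of 0.05. The largest values were those of the outer-ring subunits Psma7 (0.23) and Psma4 (−0.21, adjusted P = 0.0921), and on the inner ring Psmb4 (0.11) and Psmb3 (−0.19). Psmb7 (0.10) and Psmb5 (−0.10) gave the range of the catalytic subunits. Other settings gave core calls in T vs. S. Without animals 12 and 22, 2 core genes were called higher, where 26.4% of all genes were called. Without animal 22 alone, 1 was called higher (28.3% of all genes called), and after correction for gene length 1 was called lower (24.0%). Whether core and regulatory genes differ in their response was not tested. The interval of Psmb6, 0.06 with 95% limits of −0.16 and 0.29, leaves changes of that size in either direction possible.

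A ratio within a library needs no scaling, so the counts of the 17 regulatory genes were summed and divided by those of the 14 core genes, a summary chosen after the values had been seen and given as a description. The ratio was 1.72, 1.58 and 1.64 in S, 1.88, 1.93 and 1.79 in the hearts labelled T and 1.60, 1.64 and 1.49 in A + T. Every heart labelled T was above every other heart. The summed regulatory genes had 1788, 1840 and 1730 CPM in S, 2162, 2057 and 2028 in the hearts labelled T and 1698, 1808 and 1860 in A + T, whereas the summed core genes (1041 to 1161, 1067 to 1147 and 1063 to 1249 CPM) overlapped. By the counted transcript length that the deposited values imply, the regulatory genes are longer (median 1.57 kb, range 1.28 to 3.27) than the core genes (median 1.02 kb, range 0.735 to 1.60). The 2 ranges overlap. In T vs. S, the 5852 genes tested within the regulatory range had a median of 0.01, and the 2062 within the core range had 0.04. The part of length in the ratio was not tested.

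**Figure D3:**
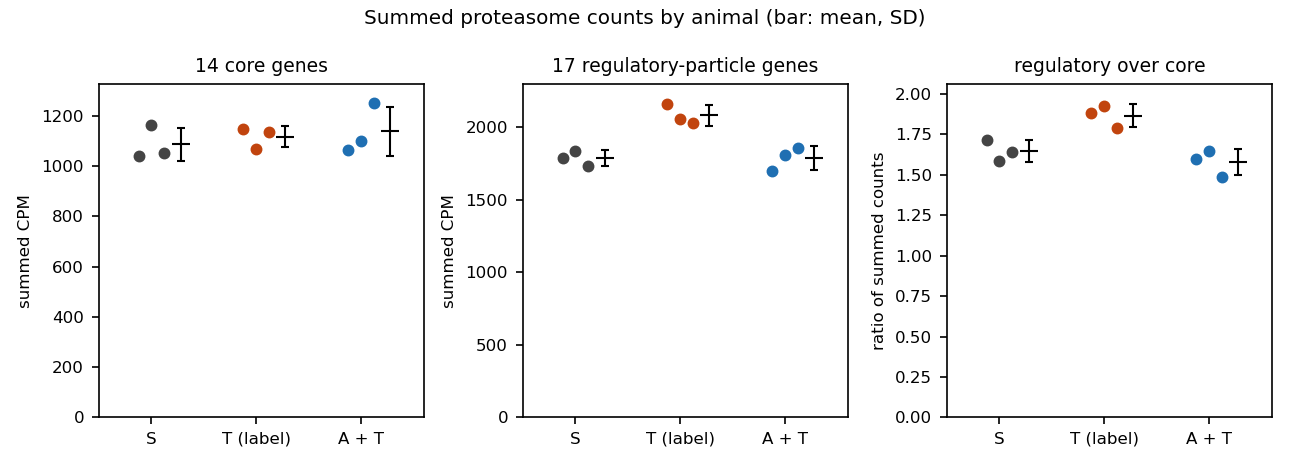
Summed CPM of the 14 core and 17 regulatory-particle genes and the ratio of their summed counts, by heart (y axes start at 0; bars: mean and SD, n = 3). Core sums of the groups overlap, while regulatory sums and ratios of the hearts labelled T lie above those of S and A + T.

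The 300 bases around the start site (250 before and 50 after it) were read from RefSeq (build GRCm38.p6) to show the promoters of genes that rose and of a core gene that did not. Capitals mark TGANNNNGC, the letters of the antioxidant response element that NFE2L1, the factor known to raise proteasome genes, can bind, searched on both strands. Psmd11 lies at chr11:80428365-80428664 (plus strand), Psmd13 at chr7:140882144-140882443 (plus strand) and Psmb5 at chr14:54617946-54618245 (minus strand).
Psmd11: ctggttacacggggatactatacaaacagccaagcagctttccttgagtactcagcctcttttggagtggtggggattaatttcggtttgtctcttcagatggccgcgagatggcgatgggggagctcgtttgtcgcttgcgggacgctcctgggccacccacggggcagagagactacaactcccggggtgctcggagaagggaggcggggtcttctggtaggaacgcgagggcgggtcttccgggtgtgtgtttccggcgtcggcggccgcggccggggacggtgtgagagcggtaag
Psmd13: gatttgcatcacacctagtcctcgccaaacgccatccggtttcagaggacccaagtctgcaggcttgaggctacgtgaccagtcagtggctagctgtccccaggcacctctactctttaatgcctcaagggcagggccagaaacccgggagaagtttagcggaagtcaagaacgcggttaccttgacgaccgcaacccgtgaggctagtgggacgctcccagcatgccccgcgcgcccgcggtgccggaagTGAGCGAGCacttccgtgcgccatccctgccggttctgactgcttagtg
Psmb5: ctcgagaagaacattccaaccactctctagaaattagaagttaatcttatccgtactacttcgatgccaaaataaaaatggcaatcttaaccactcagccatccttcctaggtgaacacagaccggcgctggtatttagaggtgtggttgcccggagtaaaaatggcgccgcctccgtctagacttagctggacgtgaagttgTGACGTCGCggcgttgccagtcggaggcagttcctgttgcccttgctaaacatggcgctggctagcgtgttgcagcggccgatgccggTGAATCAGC
Psmd13 held 1 match and Psmb5 held 2, whereas Psmd11 held none. Of the 41 of 49 genes with an entry in the promoter table, 56.1% held the letters in at least 1 entry, against 45.0% of its 27025 genes. Of the regulatory genes 6 of 14 held them, and of the core genes 8 of 11. Among the genes that rose, Psmc1, Psmc5, Psmd4 and Psmd11 held no match and Psmd7 was not in the table. The CCAAT box (CCAAT, both strands) was found in 34.1% of the 41 against 41.1% of all genes of the table. The interferon elements GAAANNGAA and TTCNNNGAA, both strands, were found in 17.1% against 9.76% and in 7.32% against 9.55%. Of the 3 immunoproteasome genes, 0 held GAAANNGAA and 1, Psmb8, held TTCNNNGAA. A match describes letters only. Nfe2l1 itself did not pass the test in T vs. S (log2 fold change 0.08).

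Between A + T and the hearts labelled T, 1 gene of the regulatory particle fell and the others had values of the same sign. All 17 of its genes had a negative log2 fold change with a median of −0.21, against 0.01 over all genes tested, and 13 of the 17 were lower in every A + T heart than in every heart labelled T (13.1% of all genes tested). Psmd11 alone of the 49 genes passed the test, with 5.88% of all genes called and 2.79% called lower. Its value fell by 0.39 on the log2 scale (SE 0.07, adjusted P = 0.0113), a call lost without animal 11 (adjusted P = 0.0573), with library totals only (0.151) and in a fit of only the groups compared (0.0526). These libraries labelled T are those of the comparison with S, so the 2 comparisons are not independent and the return toward S is in part fixed by sharing them. Values ran from Psmc1 (−0.31) to Psmc2 (−0.09) in the ATPase ring, from Psmd4 (−0.37) to Psmd1 (−0.21) in the base and from Psmd11 to Psmd14 (−0.07) in the lid, and every one stayed negative in all the alternatives fitted. Psmc1, Psmd4 and Psmd7 missed the threshold with adjusted P of 0.0641, 0.0730 and 0.0636. DESeq2 called 7 of the genes in this comparison, all lower and all of the regulatory particle, where it called 8.96% of all genes. By the study's thresholds, which 8.11% of all genes passed, 2 genes passed, and these were Psmb9 and Psmg3 with positive values.

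The core genes had 8 positive and 6 negative values in A + T vs. T, a median of 0.02 and none that passed. This balance turned with the setting, to 3 positive and 11 negative after correction for gene length, 5 and 9 without animal 12, 5 and 9 without animal 22, and 4 and 10 without both animals, and it was 12 and 2 without animal 20. The extremes were Psma2 (0.22) and Psma5 (−0.07) on the outer ring, Psmb3 (0.08) and Psmb2 (−0.07) on the inner ring, and Psmb5 (0.21) and Psmb6 (−0.02) among the catalytic subunits. Markers of macrophages and other leukocytes moved with this comparison, with 9 of 12 higher in A + T (651 to 877 CPM in sum against 329 to 449 in the hearts labelled T). Fibroblast markers did so too, with 3 of 5 higher (1121 to 1748 against 835 to 972 CPM), as did 1 of 5 endothelial markers (542 to 634 against 419 to 521 CPM). Their part in the values of the proteasome genes was not tested.

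Against S, the hearts of A + T gave no gene that passed the adjusted threshold, by edgeR or by DESeq2, where 8.31% of all genes were called. At an unadjusted P under 0.05, which 26.1% of all genes reached, there were 6 higher (Psma3, Psma6, Psmb7, Psmb10, Psme2 and Psmg4) and 2 lower genes (Psmc4 and Psmd14). The medians were 0.02 for the regulatory particle and 0.06 for the core. Psmc1 (0.14) and Psmc4 (−0.16), Psmd4 (0.11) and Psmd1 (−0.07), and Psmd13 (0.11) and Psmd14 (−0.15) were the extremes of ATPases, base and lid. Those of the core were Psma3 (0.25) and Psma4 (−0.11), Psmb1 (0.10) and Psmb2 (−0.18), and Psmb7 (0.19) and Psmb6 (0.04). After correction for gene length, 2 core genes were called lower, where 8.77% of all genes were called. Only Psmg4 passed the study's thresholds, as 8.91% of all genes did. Of the macrophage and other leukocyte markers, 9 of 12 were called higher in A + T (651 to 877 CPM in sum against 354 to 399 in S). Of the endothelial markers, 1 of 5 was called lower, and none of the 5 fibroblast markers was called. Their part in the values was not tested.

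**Figure D4:**
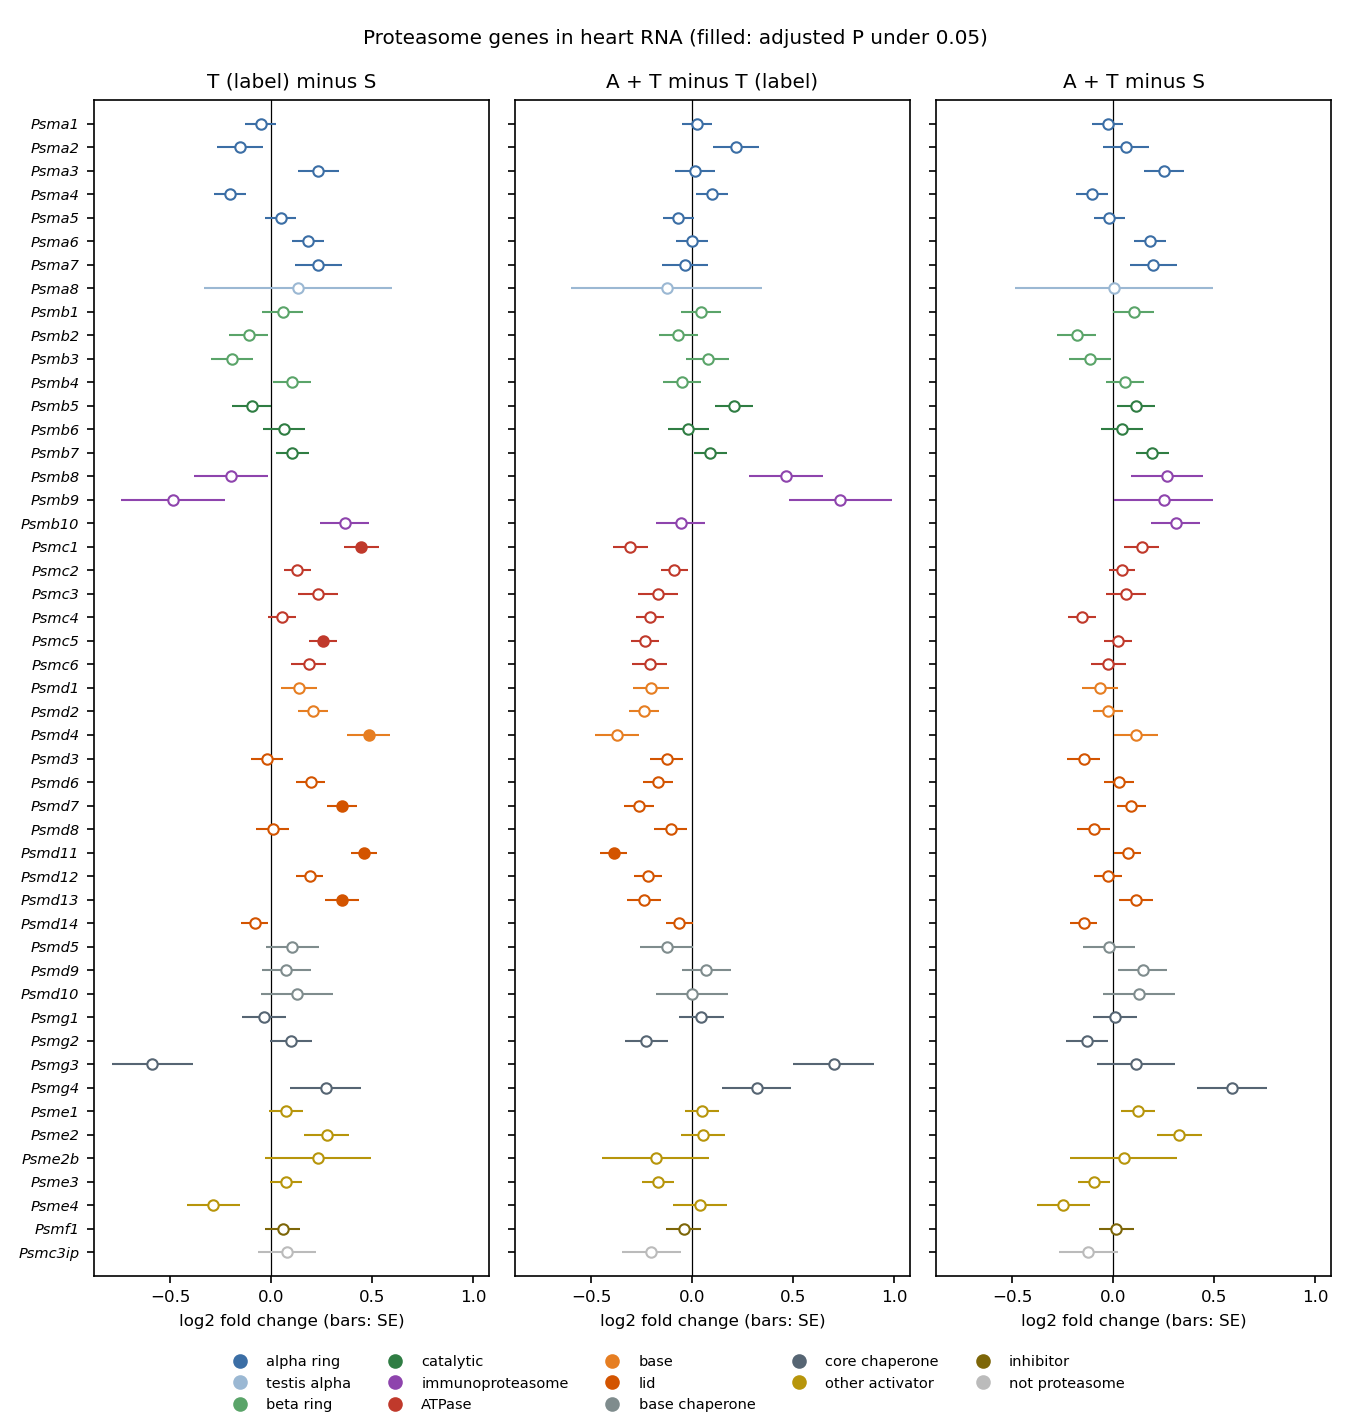
Log2 fold changes with standard errors of the 49 genes, coloured by role, for the hearts labelled T minus S, A + T minus the hearts labelled T, and A + T minus S; filled points passed an adjusted P under 0.05. The filled points are the 6 regulatory-particle genes that rose in T vs. S and Psmd11 in A + T vs. T, while the 17 regulatory genes lie left of 0 in the middle panel.

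None of the immunoproteasome genes passed the test in any comparison. Psmb8, which replaces Psmb5, had 160, 174 and 128 counts in S, 112, 150 and 81 in the hearts labelled T and 137, 139 and 226 in A + T. In CPM (8.84, 8.83 and 9.26, then 6.94, 8.91 and 7.58, then 8.47, 9.98 and 13.9) the groups overlapped, and animal 22 was the highest. T vs. S gave −0.20, A + T vs. T 0.46 (adjusted P = 0.166) and A + T vs. S 0.27 on the log2 scale.

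Psmb9, which replaces Psmb6, had 71, 58 and 57 counts in S, 43, 36 and 33 in the hearts labelled T and 65, 45 and 93 in A + T. In CPM every A + T heart was above every heart labelled T, while S overlapped with A + T. The log2 fold changes were −0.48 in T vs. S (adjusted P = 0.207), 0.73 in A + T vs. T (adjusted P = 0.122) and 0.25 in A + T vs. S.

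Psmb10, which replaces Psmb7, had 23.7, 26.4 and 20.8 CPM in S, 32.7, 28.8 and 30.1 in the hearts labelled T and 25.4, 28.8 and 33.8 in A + T. The hearts labelled T were all above S, but with a log2 fold change of 0.37 the gene missed the threshold (SE 0.12, adjusted P = 0.0557). It gave −0.06 in A + T vs. T and 0.31 in A + T vs. S (adjusted P = 0.139).

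Of the constitutive partners, none passed the test. Psmb5, whose exons overlap Mir686 on the same strand, had 20.2, 20.6 and 19.5 CPM in S, 19.5, 16.6 and 20.5 in the hearts labelled T and 21.4, 22.8 and 21.1 in A + T. Psmb6 had 87.0, 100.4 and 83.0, then 98.5, 84.9 and 99.3, then 88.2, 87.9 and 103 CPM, and Psmb7 had 97.8, 115 and 108, then 114, 111 and 122, then 125, 118 and 125 CPM in the same order.

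The immunoproteasome share of each pair was compared within a library as a log2 ratio of counts, by an exact permutation test between 3 and 3 hearts (two-sided), which cannot give a P below 0.1. Of 9 tests, 2 reached that value. The ratio of Psmb9 to Psmb6 was 0.71 higher in A + T than in the hearts labelled T, without overlap (exact P = 0.1, adjusted over the 9 tests P = 0.45), and that of Psmb10 to Psmb7 was 0.27 higher in the hearts labelled T than in S, again without overlap (exact P = 0.1, adjusted P = 0.45). The latter difference was 0.17 without animal 5. Per length, Psmb9 made up 3.32% to 3.99% of its pair in the hearts labelled T and 4.68% to 6.83% in A + T, beside 3.78% to 6.17% in S. The other 7 ratios overlapped between groups, among them that of Psmb8 to Psmb5, which in animal 22 (Psmb8 32.1% of the pair per length) lay above all other hearts.

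**Figure D5:**
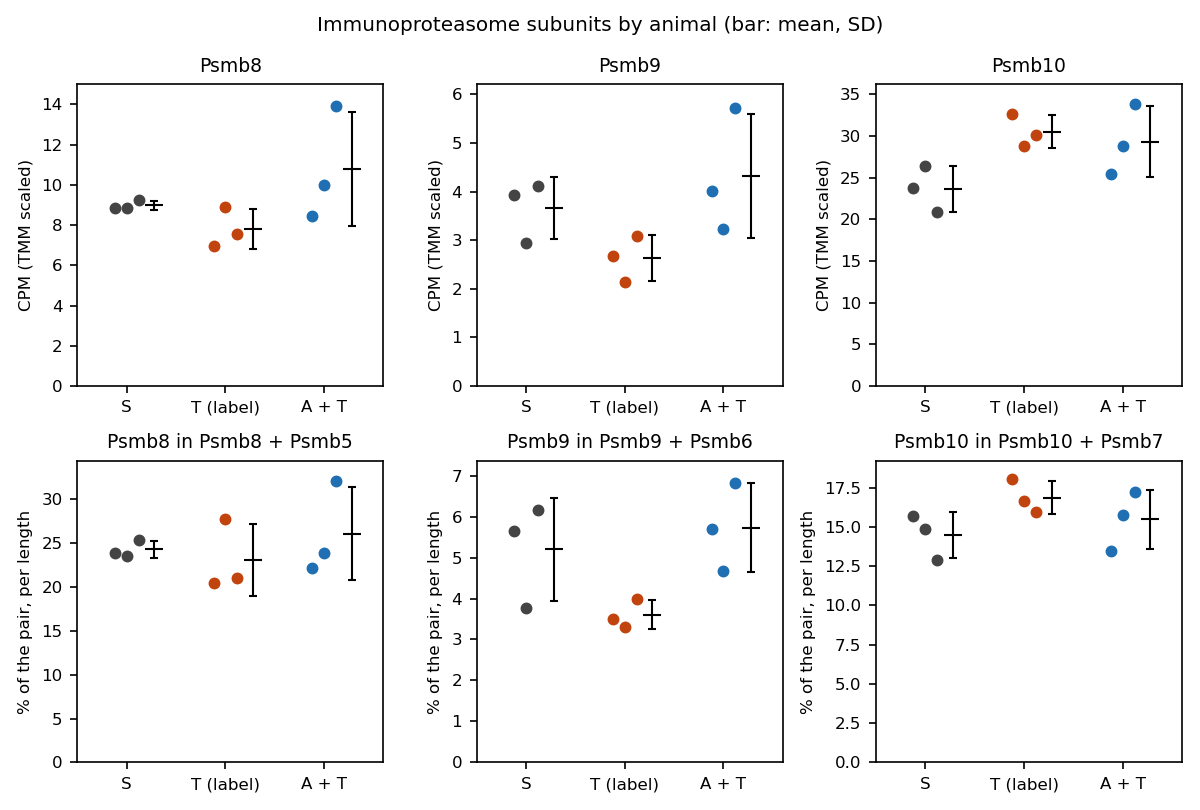
CPM of Psmb8, Psmb9 and Psmb10 (top) and their share of the pair with the constitutive subunit, per length (bottom, %), by heart (y axes start at 0; bars: mean and SD, n = 3). Psmb9 in A + T lies above the hearts labelled T in both rows, and animal 22 gives the highest Psmb8 and Psmb9 values.

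Genes that work with the immunoproteasome in antigen presentation and interferon signalling were read from a list of 11, all present. In A + T vs. T, Irf1, a transcription factor that drives Psmb9, rose by 0.73 on the log2 scale (adjusted P = 0.0276 from edgeR) and the peptide trimmer Erap1 fell by 0.40 (adjusted P = 0.0386).

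Assembly factors and the other activators showed no gene that passed. Psmg3, a chaperone of the core, had 74, 83 and 46 counts in S, 41, 49 and 24 in the hearts labelled T and 56, 66 and 72 in A + T. In CPM the hearts labelled T were lowest without overlap, and its log2 fold changes were −0.59 in T vs. S (SE 0.20, adjusted P = 0.0596) and 0.70 in A + T vs. T (SE 0.20, adjusted P = 0.0675). The exons of Psmg3 overlap those of Gm26938 on the same strand, so its counts are uncertain.

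Psmg4, its partner, had 65, 77 and 55 counts in S, 70, 73 and 56 in the hearts labelled T and 78, 79 and 110 in A + T. A + T vs. S gave 0.59 on the log2 scale (SE 0.17, adjusted P = 0.0624). Psmg2 gave −0.23 in A + T vs. T. Of the chaperones of the regulatory particle, Psmd10 gave 0.13 and Psmd9 0.08 in T vs. S, and Psmd9 0.07 and Psmd5 −0.13 in A + T vs. T. Psmd9 (0.15) and Psmd5 (−0.02) were the extremes in A + T vs. S.

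Psme2, a subunit of the 11S activator, had 37.0, 41.6 and 35.3 CPM in S, 48.6, 43.3 and 46.0 in the hearts labelled T and 43.8, 43.4 and 55.8 in A + T. Both groups lay above S without overlap, with log2 fold changes of 0.28 (adjusted P = 0.103) and 0.33 (adjusted P = 0.0934), neither of which passed. Psme4, the activator PA200, had a value of −0.29 in T vs. S (adjusted P = 0.148) and −0.25 in A + T vs. S. The inhibitor Psmf1 gave 0.06 against S in the hearts labelled T, 0.015 against S in A + T and −0.04 between those groups.

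Other genes of the pathway were taken from a list of 34 symbols for shuttle factors, ubiquitin genes, deubiquitinases and regulators of proteasome genes, of which 30 were present. In T vs. S, 5 of the 30 passed and all were higher, with a median over the list of 0.20. The largest was Ddi2 (0.73, adjusted P = 0.00228), the protease that activates NFE2L1, at 14.8, 12.6 and 12.7 CPM in S, 23.3, 21.3 and 22.3 in the hearts labelled T and 16.5, 21.3 and 21.3 in A + T. All hearts labelled T were above all S hearts. Uchl5, a deubiquitinase bound to the regulatory particle, gave 0.65 (adjusted P = 0.00200), Nploc4, a cofactor of the unfoldase Vcp, 0.33 (adjusted P = 0.0431), Ngly1, which processes NFE2L1, 0.30 (adjusted P = 0.0155), and Akirin2, which brings proteasomes into the nucleus, 0.30 (adjusted P = 0.0100).

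In A + T vs. T only Uchl5 of this list passed, with a log2 fold change of −0.43 (adjusted P = 0.0367). In A + T vs. S, Ddi2 (0.56) and the ubiquitin fusion gene Rps27a (0.54) rose and the shuttle factor Ubqln4 (−0.35) fell. The share that passed was 5 of 30 in T vs. S, beside 21.2% of all genes tested, and 1 of 30 in A + T vs. T, beside 5.88%.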

How the data were processed

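RNA of 9 hearts was analysed. The authors prepared mRNA libraries from RNA with an integrity number of at least 7, used STAR to align 75-base reads to mm10 and featureCounts to count, by strand, unique alignments of mapping quality 10 or more over RefSeq genes. They deposited raw counts per gene, and also log2 values, which here equal log2 CPM after TMM scaling with a prior count of 2, less a constant for each gene, as for scaling by gene length (median SD 1.66e-05 across libraries). Of 17333 lines, 3443 were blank and left out. All sample columns were used, and columns of the authors' fold changes and P-values in their gene list were used only to check the labels.

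The low-count filter took out 526 of 13890 genes (CPM below 0.5 in over 4 libraries). All pairs of groups were compared with edgeR 4.0.16 (R 4.3.3), using its quasi-likelihood test, TMM scaling, all 9 libraries in 1 fit and Benjamini-Hochberg adjustment over all genes tested. Ratios of immunoproteasome to constitutive genes were tested exactly. A gene was called at an adjusted P under 0.05. Depth was between 12392222 and 19732471 counts. The genes, lists and rules were chosen with earlier results of these data known. Named with all values were the catalytic and immunoproteasome genes and the genes called without overlap, and the largest rise and fall of each role were named. Counts of Psme2b (a near copy of Psme2, also overlapping 9930111J21Rik1), Psmg3, Psmb5 and Psmd1 are uncertain because their exons overlap other genes on the same strand. Promoters came from RefSeq on GRCm38.p6. The fits by edgeR, limma and DESeq2 were tested on simulated counts with known changes in T vs. S. The other steps were not tested on simulated counts.

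The alternatives were the likelihood ratio test of edgeR, DESeq2 1.42.0, limma-voom (limma 3.58.1), upper-quartile and relative log expression scaling, library totals only, a minimum of 10 counts per library, no low-count filter, a fit of only the groups compared, the deposited log2 values with limma, Rn45s left out, the study's thresholds and each animal left out. A correction for gene length, the fits without animals 12 and 22 and the ratio of regulatory to core counts were chosen after seeing the data. Some results for genes outside the 49 are not reported here.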

Additional observations from a re-analysis of the deposited data

How the results depend on the processing

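Of the 49 genes, 6 were called in T vs. S, 1 in A + T vs. T and 0 in A + T vs. S. Over all genes tested the shares were 21.2%, 5.88% and 8.31% in the same order. In this paragraph, brackets give the share of all genes tested that passed in the same setting. In T vs. S the count was 1 under the study's thresholds (14.2%) and 1 with library totals only (12.2%). It was 10 with only the groups compared (25.5%), 11 after correction for gene length (24.0%) and 13 without animals 12 and 22 (26.4%). Of the 11, 9 were higher and 2 lower, and 7 were of the regulatory particle. Of the 13, 12 were higher and 1 lower, and 8 were of the regulatory particle. In A + T vs. T it was 2 under the study's thresholds (8.11%), 7 with DESeq2 (8.96%) and 3 with the likelihood ratio test (8.94%). It was 0 with library totals only (3.28%), 0 with only the groups compared (1.62%) and 3 with the deposited log2 values (5.55%). After correction for gene length it was 9 (9.71%), and without animals 12 and 22 it was 3 (6.55%). In A + T vs. S it was 1 under the study's thresholds (8.91%) and 1 with the deposited log2 values (7.67%). After correction for gene length it was 2 (8.77%), both lower and both of the core. Leaving out 1 animal gave 4 to 14 genes in T vs. S, with 4 without animal 5 (13.9%) or animal 11 (13.2%) and 14 without animal 22 (28.3%). In A + T vs. T it gave 0 to 4, with 0 without animal 11 (0.973%) and 4 without animal 22 (7.53%). In A + T vs. S it gave 0 to 1, with 1 without animal 20 (7.03%).

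The median log2 fold change of the 49 genes in A + T vs. T, −0.07, became −0.15 after correction for gene length and −0.15 without animals 12 and 22, was −0.020 with upper-quartile scaling, and ran from −0.021 (without animal 20; −0.038 without animal 11) to −0.117 (without animal 22) with 1 animal left out. In A + T vs. S, 0.04, it became −0.055 after that correction, −0.028 without both animals, and ran from −0.0275 (without animal 22) to 0.093 with 1 animal left out. The difference of the log2 ratio of Psmb8 to Psmb5 in A + T vs. S, 0.12, ran from −0.0994 (without animal 22) to 0.27, and that of Psmb9 to Psmb6, 0.17, from −0.0612 (without animal 3) to 0.32. The cause of these shifts was not tested beyond the construction of each setting. No paired analysis was possible because the labels give the groups no shared replicate numbers. Counting depth limits Psma8 (4 to 21 counts) most, and also Psme2b, Psmb9 and Psmg3, each with under 100 counts in every library.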
